A study of Mus musculus with 10 samples.

Results

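A set of 10 genes that mark resident and alternatively activated macrophages is described here in the outflow vein of a mouse arteriovenous fistula, after antibody or vehicle. They are Arg1, Retnla, Ccl24, Mrc1, Clec10a, Mgl2, Cd163, Stab1, Folr2 and F13a1, and their rows were taken by gene name from a deposited table, 10 of 43346 genes. All 10 passed the filter on low values that left 17859 genes for testing. Libraries came from 5 antibody samples and 5 vehicle samples. All 10 samples came from C57 mice that carried a human CX3CR1 knock-in, had chronic kidney disease made 28 days before the fistula, and had a fistula made with carotid artery and jugular vein. The antibody group received 30 mg/kg by the intraperitoneal route and the vehicle group an equal volume of vehicle, both given 2 times per week, until the outflow veins were collected on day 7. The series title names a fractalkine antibody, whereas the treatment text names human CX3CR1, the fractalkine receptor, so the target is given here only as far as the labels go. Neither the sex and age of the mice nor whether each library is a separate animal is given in the labels, so p-values measure the spread between these libraries, which may be technical in part. No library came from a mouse without the knock-in, the kidney disease or the fistula.

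Macrophages that live in tissue long term carry uptake receptors such as the mannose receptor, CD163, stabilin-1 and the folate receptor beta, with which they clear glycoproteins, haemoglobin and debris. When the cytokines IL-4 or IL-13 bind their receptors, the kinases JAK1 and JAK3 activate the transcription factor STAT6, which in mouse macrophages turns on Arg1, Retnla and other genes of what is called alternative activation. The same 10 genes are not restricted to macrophages: dendritic cells carry the galactose lectins, lymphatic and sinusoidal endothelium carries stabilin-1 and the mannose receptor, and platelets carry the factor XIII A subunit. Arteriovenous fistulas are used for haemodialysis access, and macrophages are among the leukocytes that enter the vein wall as it remodels.

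Promoter windows from RefSeq (GRCm38.p6), running from 250 bases before to 50 bases after a transcript start, matched 7 of the 10 genes with 9 windows. Arg1, Clec10a and Ccl24 were not matched. Both strands were searched for 4 motifs: STAT6 as TTC and GAA separated by any 4 bases, PU.1 (the myeloid lineage factor) as GAGGAAGT, C/EBP as TTGCNNAA and AP-1 as TGANTCA. Of 32851 windows, 6.95% held the STAT6 motif, 3.20% the PU.1 motif, 10.8% the C/EBP motif and 7.81% the AP-1 motif. Retnla was the only one of the 7 genes with more than 1 match, and is shown for that reason. Its window, chr16:48842359-48842658 on the plus strand, held a PU.1 motif on the opposite strand at -198 to -191, a STAT6 motif at -145 to -136 and a C/EBP motif at -134 to -127, counted from the start as 0. These matches do not overlap and are in capitals.

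Retnla: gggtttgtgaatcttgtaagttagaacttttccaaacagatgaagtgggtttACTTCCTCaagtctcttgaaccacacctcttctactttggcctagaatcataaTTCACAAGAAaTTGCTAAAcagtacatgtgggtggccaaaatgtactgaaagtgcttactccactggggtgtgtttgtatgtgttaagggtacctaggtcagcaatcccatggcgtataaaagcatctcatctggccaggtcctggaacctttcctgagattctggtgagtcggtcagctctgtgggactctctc

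Folr2, the gene with the smallest unadjusted p among the 10, had an AP-1 motif at -74 to -68 in the window chr7:101845282-101845581 on the minus strand, in capitals below.

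Folr2: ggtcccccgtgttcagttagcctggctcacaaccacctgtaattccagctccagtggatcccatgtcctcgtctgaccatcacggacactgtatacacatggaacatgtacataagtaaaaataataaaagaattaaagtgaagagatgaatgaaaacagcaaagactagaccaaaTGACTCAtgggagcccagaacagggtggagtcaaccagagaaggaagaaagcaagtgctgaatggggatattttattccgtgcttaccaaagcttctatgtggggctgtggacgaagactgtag

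F13a1 had 1 of its 2 windows with a match, chr13:37049164-37049463 on the minus strand, where a PU.1 motif lay at 14 to 21 past the start. The window is shown beside the others because F13a1 was, with Folr2 and Ccl24, among the genes with an unadjusted p below 0.05.

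F13a1: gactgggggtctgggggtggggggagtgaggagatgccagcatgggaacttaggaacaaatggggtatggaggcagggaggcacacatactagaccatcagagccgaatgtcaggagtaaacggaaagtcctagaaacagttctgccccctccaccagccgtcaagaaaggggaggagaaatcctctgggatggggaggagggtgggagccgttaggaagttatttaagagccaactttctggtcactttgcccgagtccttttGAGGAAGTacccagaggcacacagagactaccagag

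The windows of Mrc1, Cd163, Mgl2 and Stab1 and the other windows of Folr2 and F13a1 held none of the 4 motifs. A match is a run of letters and says nothing of whether a factor binds there in these veins.

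Libraries held 4282872 reads (antibody library 3) to 34271554 reads (vehicle library 4), recovered from the deposited RPKM (read counts divided by gene length and by the library's total). Levels below are RPKM after scaling for library composition, so they can be compared between genes as well as between libraries. Endothelial and macrophage genes were present in every library: Cdh5, the VE-cadherin of endothelium, measured 52.6 to 69.5 RPKM after antibody and 44.6 to 64.5 RPKM after vehicle, and Csf1r, the receptor for macrophage growth factor, 56.1 to 87.9 RPKM after antibody and 63.1 to 86.3 RPKM after vehicle. Vehicle library 2 stood apart in myeloid genes. Its Cd74, the invariant chain of MHC class II, measured 37.5 RPKM against 196 to 656 RPKM in the other 9 libraries, and its Ccr2, a receptor of recruited monocytes, 2.95 RPKM against 8.60 to 20.1 RPKM. Its Chil3, another gene of alternative activation, measured 32.2 RPKM against 0.438 to 6.99 RPKM. Results that turn on this library, or on the shallow antibody library 3, are given with and without them.

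By mean over the 10 libraries the levels ran from Mrc1 at 71.6 RPKM through F13a1 at 56.1, Stab1 at 43.5, Folr2 at 27.0, Cd163 at 15.8, Clec10a at 11.2, Arg1 at 9.29, Retnla at 4.89 and Mgl2 at 4.26 to Ccl24 at 2.67 RPKM. No 2 neighbours in this order stood apart by more than their spread (mean ± SD over the 10 libraries overlapped in each case). Mrc1 lay at percentile 96.6 of the genes tested and Ccl24 at percentile 38.3. Mrc1, Stab1, Folr2 and Cd163 lay with F13a1 in the upper part of the range. Arg1, Retnla and Ccl24 lay in the lower part, with the galactose lectins Clec10a and Mgl2.

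The difference between groups was tested with limma on log2(scaled RPKM + 0.5), antibody minus vehicle, two-sided, with Benjamini-Hochberg adjustment over all 17859 genes; the added 0.5 understates the change of low genes. None of the 10 genes was called at an adjusted p below 0.05, and 0.0% of all genes tested were; the smallest adjusted p of any gene was 0.739. A lower mean log2 level after antibody was seen in 9 of 10 genes, against 51.1% of all genes, and Arg1 was the exception. The median log2 difference was -0.52 over the 10 genes and -0.0048 over all genes. Folr2, Ccl24 and F13a1 had an unadjusted limma p below 0.05, all on the lower side, where 2.95% of all genes lay. On the higher side, 642 of the 17859 genes had an unadjusted limma p below 0.05. The libraries of the groups overlapped for all 10 genes, as they did for all but 1.11% of the genes tested. Without vehicle library 2 and antibody library 3, an alternative added after the data were seen, 6 of 10 genes lay lower and the median was -0.24. In bulk tissue, fewer cells of a type and less RNA per cell cannot be told apart. For the 10 genes, the limma value of the fit with group as the only term is accompanied by the p of an exact two-sided permutation test, which used all 252 ways to divide the libraries into 5 and 5 and cannot give less than 0.00794.

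**Figure D1:**
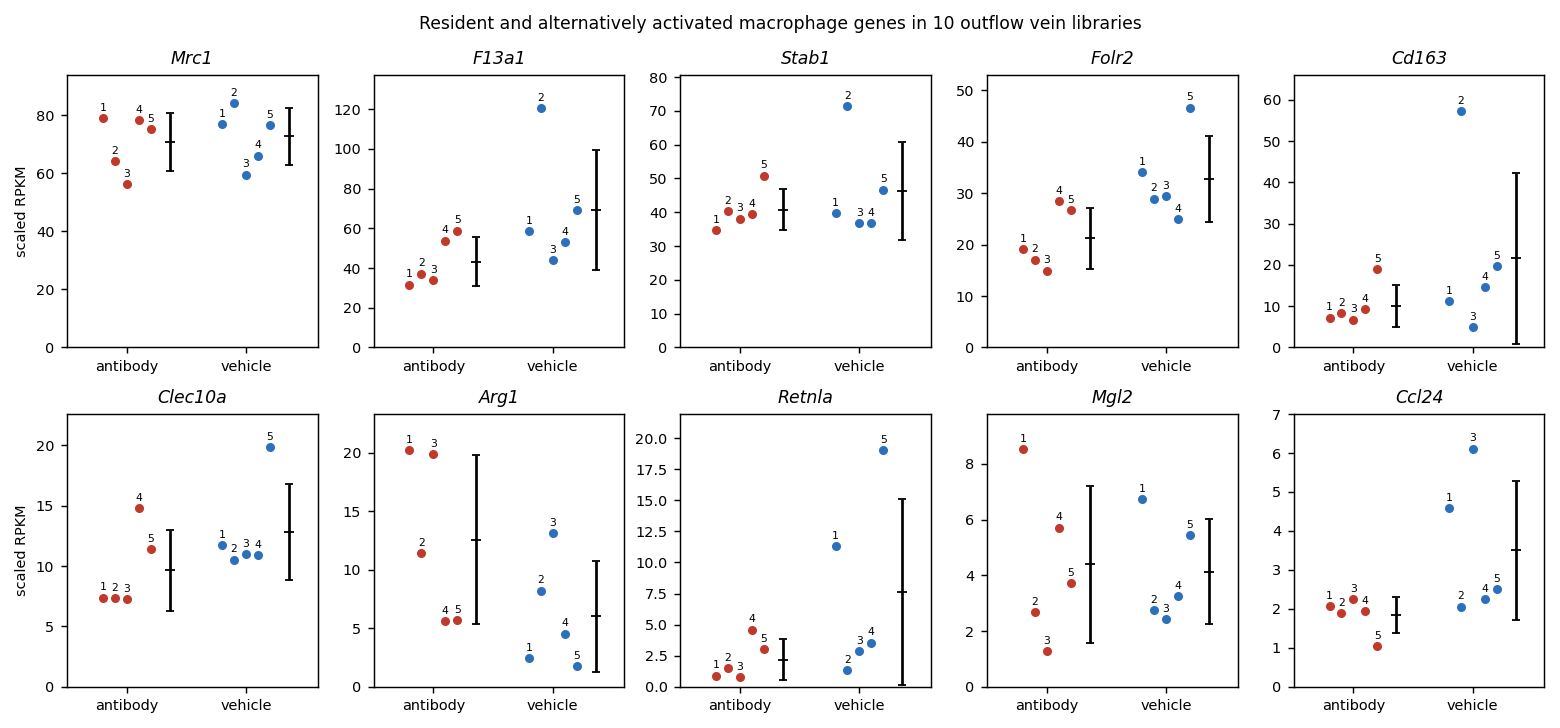
Scaled RPKM (linear axis from 0) of each gene in the 5 antibody libraries (red, left) and the 5 vehicle libraries (blue, right), numbered by replicate, with black bars for the group mean ± SD. The groups overlap in all 10 panels, and vehicle library 2 stands highest in the panels of Mrc1, F13a1, Stab1 and Cd163.

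Among the secreted products and enzymes of the IL-4 response, Arg1 and Retnla pointed in opposite directions. Arg1 (mm10 chr10:24915208-24927470) encodes arginase 1, which splits arginine into ornithine and urea. It measured 20.2, 11.4, 19.9, 5.64 and 5.72 RPKM in antibody libraries 1 to 5, against 2.42, 8.20, 13.1, 4.55 and 1.74 RPKM in vehicle libraries 1 to 5. Antibody libraries 1 and 3 were the highest and vehicle libraries 5 and 1 the lowest, while antibody libraries 4 and 5 lay within the range of the vehicle libraries. The mean was 12.6 ± 7.22 RPKM after antibody and 6.01 ± 4.72 RPKM after vehicle (SD, n = 5 each). The log2 difference was 1.12 (SE 0.54), a 2.18-fold higher level with a 95% interval of 0.947 to 5.004, which did not pass the test (limma adjusted p = 0.739; exact permutation p = 0.103).

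Retnla (chr16:48842552-48844461) encodes RELM alpha, a secreted protein of mouse alternative activation, and its promoter is shown above. It measured 0.895, 1.52, 0.748, 4.61 and 3.06 RPKM in antibody libraries 1 to 5, against 11.3, 1.32, 2.85, 3.54 and 19.0 RPKM in vehicle libraries 1 to 5. Vehicle libraries 5 and 1 were the highest, and the other 3 vehicle libraries lay among the antibody libraries. With 25.4-fold between the lowest and highest library it was the most variable of the 10 genes, and the 3 lowest antibody libraries rest on 2 to 19 reads. The mean was 2.17 ± 1.64 RPKM after antibody and 7.62 ± 7.46 RPKM after vehicle, and the log2 difference was -1.30 (SE 0.64; limma adjusted p = 0.739; exact permutation p = 0.135).

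Ccl24 (chr5:135569937-135573043) encodes eotaxin-2, a ligand of the eosinophil receptor CCR3 made by alternatively activated macrophages. It measured 2.08, 1.90, 2.26, 1.94 and 1.05 RPKM in antibody libraries 1 to 5, against 4.59, 2.06, 6.12, 2.25 and 2.51 RPKM in vehicle libraries 1 to 5. Vehicle libraries 3 and 1 were high, antibody library 5 was low and the remaining 7 libraries lay within 1.90 to 2.51 RPKM. The mean was 1.84 ± 0.466 RPKM after antibody and 3.505 ± 1.78 RPKM after vehicle. The log2 difference was -0.69 (SE 0.28), with an exact permutation p of 0.0397, and did not pass after adjustment over all genes (limma adjusted p = 0.739). The libraries rest on 13 to 180 reads.

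The 3 lectin receptors differed less between the groups. Mrc1 (chr2:14229392-14332057), the mannose receptor CD206 that takes up mannosylated glycoproteins and collagen fragments, measured 79.1, 64.1, 56.4, 78.3 and 75.2 RPKM in antibody libraries 1 to 5, against 77.0, 84.1, 59.5, 66.0 and 76.6 RPKM in vehicle libraries 1 to 5. The groups lay over each other, and the level varied least of the 10 genes, with a coefficient of variation of 13.1% over the 10 libraries. The mean was 70.6 ± 9.97 RPKM after antibody and 72.7 ± 9.76 RPKM after vehicle (log2 difference -0.042, SE 0.13; exact permutation p = 0.714; limma adjusted p = 0.947). The 95% interval of the fold, 0.791 to 1.19, bounds what these libraries can show, and the sign of the difference turned positive with scaling by library totals (0.042), without antibody library 3 (0.035) and without vehicle library 2 (0.013).

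Clec10a (chr11:70156197-70170834) and Mgl2 (chr11:70130329-70137550) are neighbouring mouse genes for galactose-type lectins that bind terminal galactose and N-acetylgalactosamine. Clec10a measured 7.39, 7.34, 7.26, 14.8 and 11.4 RPKM in antibody libraries 1 to 5, against 11.7, 10.5, 11.02, 10.9 and 19.9 RPKM in vehicle libraries 1 to 5. Antibody libraries 1, 2 and 3 lay below every other library and vehicle library 5 above, while antibody libraries 4 and 5 lay among the vehicle libraries. The means were 9.63 ± 3.37 RPKM after antibody and 12.8 ± 3.97 RPKM after vehicle (log2 difference -0.41, SE 0.23; limma adjusted p = 0.755; exact permutation p = 0.111).

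Mgl2 measured 8.54, 2.68, 1.28, 5.72 and 3.73 RPKM in antibody libraries 1 to 5, against 6.75, 2.76, 2.43, 3.26 and 5.44 RPKM in vehicle libraries 1 to 5. The highest and the lowest library, antibody 1 and antibody 3, were both of the antibody group. The means were 4.39 ± 2.83 RPKM after antibody and 4.13 ± 1.88 RPKM after vehicle, and on the log2 scale they differed by -0.039 with an SE of 0.42 (exact permutation p = 0.944; limma adjusted p = 0.985), so the means and the log2 difference had opposite signs. The sign of the log2 difference turned in 8 of 25 alternatives, scaling by library totals (0.035) among them. Over transcripts of GENCODE M21, 9.02% of the 50-base stretches of Clec10a and 13.1% of those of Mgl2 also occur in other genes, in part in each other, so the split of reads between them is uncertain.

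Among Folr2, Cd163 and Stab1, the remaining uptake receptors, Folr2 differed in the same direction whichever library was left out (-0.74 to -0.49 on the log2 scale), whereas Stab1 changed sign and Cd163 shrank without vehicle library 2. Cd163 (chr6:124304651-124330527), which takes up haemoglobin bound to haptoglobin, measured 7.23, 8.26, 6.73, 9.32 and 19.0 RPKM in antibody libraries 1 to 5, against 11.2, 57.3, 4.93, 14.7 and 19.7 RPKM in vehicle libraries 1 to 5. Vehicle library 2 was the highest by a wide margin, and vehicle library 3 was the lowest of all 10. The mean was 10.1 ± 5.09 RPKM after antibody and 21.6 ± 20.7 RPKM after vehicle. The log2 difference was -0.72 (SE 0.54; limma adjusted p = 0.782; exact permutation p = 0.294). It was -0.26 without vehicle library 2 and -1.11 without vehicle library 3, where the unadjusted limma p was 0.0368 and the adjusted p 0.891.

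Stab1 (chr14:31139013-31168641), stabilin-1, a receptor for modified lipoproteins and matrix proteins, measured 34.7, 40.4, 38.1, 39.4 and 50.8 RPKM in antibody libraries 1 to 5, against 39.8, 71.4, 36.8, 36.8 and 46.7 RPKM in vehicle libraries 1 to 5. Apart from vehicle library 2 the groups covered the same range. The mean was 40.7 ± 6.06 RPKM after antibody and 46.3 ± 14.6 RPKM after vehicle. The log2 difference was -0.15 (SE 0.19; limma adjusted p = 0.859; exact permutation p = 0.587), and 0.019 without vehicle library 2. Stab1 overlaps Nt5dc2 on the opposite strand in GENCODE M21, and the sources used here do not say whether counting used strand.

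Folr2 (chr7:101839990-101845331), the folate receptor beta of tissue macrophages, measured 19.2, 17.1, 14.9, 28.4 and 26.6 RPKM in antibody libraries 1 to 5, against 34.0, 29.0, 29.4, 24.9 and 46.6 RPKM in vehicle libraries 1 to 5. Antibody libraries 1, 2 and 3 lay below all vehicle libraries, and antibody libraries 4 and 5 lay above vehicle library 4 only. The mean was 21.2 ± 5.95 RPKM after antibody and 32.8 ± 8.40 RPKM after vehicle. The log2 difference was -0.62 (SE 0.21), a fold of 0.649 with a 95% interval of 0.469 to 0.897; the exact permutation p was 0.0397 and the limma adjusted p 0.739. Its unadjusted limma p was below 0.05 in 23 of 25 other settings, and the exceptions are given below with the neutrophil and platelet genes. All these settings refit the same libraries, so the count is not independent support. In GENCODE M21, 52.6% of the 50-base stretches of Folr2 transcripts also occur, on either strand, in the antisense gene Gm10602. That release runs Folr2 to chr7:101857194, past the end in the file. The share therefore does not measure the uncertainty of the level given here, which also depends on whether counting used strand.

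F13a1 (chr13:36867178-37050244) encodes the A subunit of coagulation factor XIII, a transglutaminase that cross-links fibrin, made by tissue macrophages and megakaryocytes. It measured 31.6, 37.2, 34.1, 53.8 and 58.9 RPKM in antibody libraries 1 to 5, against 58.4, 120.4, 44.1, 53.2 and 69.1 RPKM in vehicle libraries 1 to 5. Antibody libraries 1, 2 and 3 again lay below all vehicle libraries, and vehicle library 2 stood above the rest. The mean was 43.1 ± 12.4 RPKM after antibody and 69.1 ± 30.1 RPKM after vehicle (log2 difference -0.63, SE 0.27; limma adjusted p = 0.739; exact permutation p = 0.0794). Without vehicle library 2 the log2 difference was -0.41 and the unadjusted limma p 0.0887.

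**Figure D2:**
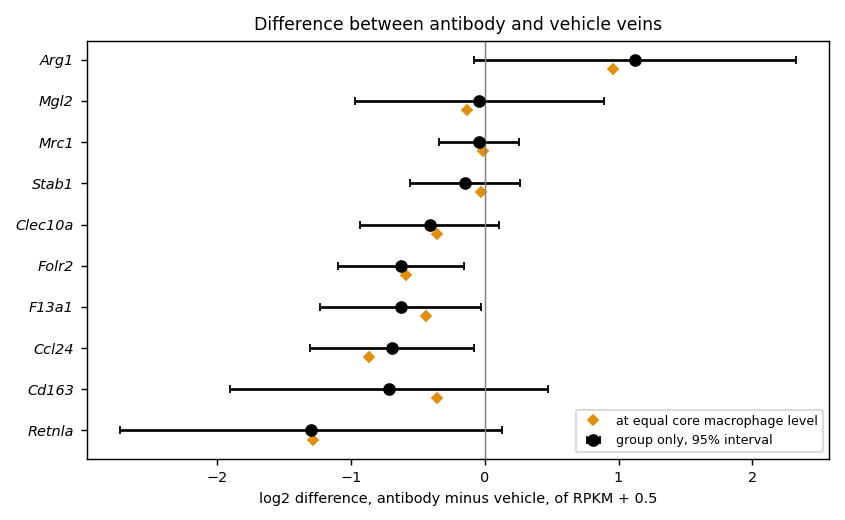
The log2 difference of scaled RPKM + 0.5 (antibody minus vehicle) for each gene, with black points and 95% intervals from limma with group as the only term and orange diamonds from limma at equal level of core macrophage genes. The intervals of Folr2, F13a1 and Ccl24 lie below 0, those of the other 7 genes include 0, the point of Arg1 alone lies above 0, and no adjusted p is below 0.05.

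Levels of the 10 genes were also compared at equal level of 14 core monocyte and macrophage genes (among them Csf1r, Cd68 and Adgre1), by adding the mean log2 level of these genes as a term in limma. Again 9 of 10 lay lower after antibody, with a median log2 difference of -0.36, against -0.0034 over all genes. Ccl24 had a log2 difference of -0.87 (SE 0.21) in this fit and Folr2 -0.59 (SE 0.22), both with a limma adjusted p of 0.731. Over the 10 libraries the core level had a Pearson r of -0.80 (rho -0.77) with Cd163 and -0.79 (rho -0.65) with Stab1. With F13a1 it was -0.80 (rho -0.72), while Arg1, Ccl24 and Mgl2 had a positive r with the core level. The core genes themselves did not move together: 9 of 14 lay higher and 5 lower after antibody, their median log2 difference was 0.18, and their summed level was 973 to 1740 RPKM after antibody and 1227 to 1837 RPKM after vehicle. Ccr2 alone among them had an unadjusted p below 0.05 (14.7 ± 4.11 RPKM after antibody, 8.29 ± 3.04 RPKM after vehicle; log2 difference 0.86, SE 0.32; limma adjusted p = 0.739). Most of the summed level was Lyz2, at 689 to 1182 RPKM after antibody and 886 to 1345 RPKM after vehicle. Its log2 difference was -0.33 (SE 0.22, limma adjusted p = 0.772), so the sum follows this gene more than the other core genes.

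Across libraries, Arg1 and Retnla ran opposite to each other. The ratio of Arg1 to Retnla RPKM was 22.6, 7.47, 26.6, 1.22 and 1.87 in antibody libraries 1 to 5, against 0.213, 6.20, 4.61, 1.28 and 0.0915 in vehicle libraries 1 to 5. The ratios of antibody libraries 1 and 3 rest on only 5 and 2 reads of Retnla, so their size is loosely known. The 2 libraries with more Retnla than Arg1 were both vehicle libraries, and the groups overlapped. Over the 10 libraries the log2 levels had a Pearson r of -0.93 and a Spearman rho of -0.93. The r was -0.90 for deviations from the group means and -0.88 without the 2 libraries farthest from the median of Arg1. Those were vehicle library 5 and antibody library 1, so the value from 2 reads in antibody library 3 stayed in. This pair was picked out after the values of all 45 pairs were seen, and all libraries share the same tissue and scaling, so the correlation is a description over 10 points.

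**Figure D3:**
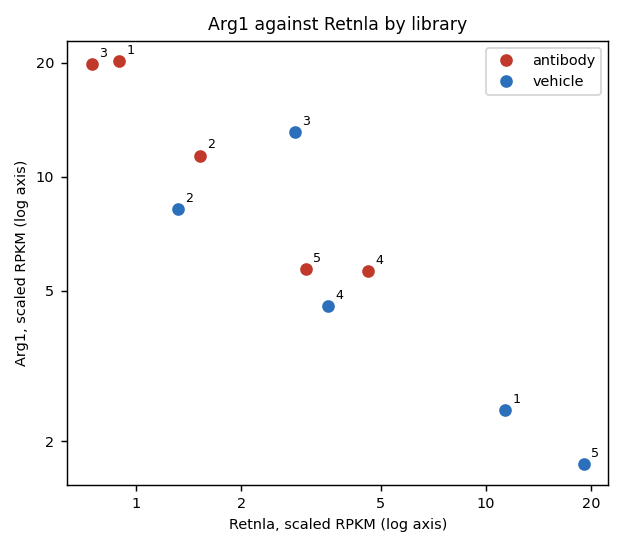
Arg1 against Retnla in scaled RPKM, both on log axes, for the 5 antibody libraries (red) and the 5 vehicle libraries (blue), numbered by replicate. Points run from antibody libraries 3 and 1, high in Arg1 at the upper left, to vehicle libraries 1 and 5, high in Retnla at the lower right, with both groups mixed in between.

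Of the 45 pairs, 30 had a positive r and 15 a negative one, and all 9 pairs with Arg1 were negative. Not all of these were firm: Arg1 with Ccl24 had r of -0.067, which was 0.41 for deviations from the group means. Arg1 with Stab1 had r of -0.24, and -0.13 for such deviations. Only 6 pairs exceeded 0.8, and they fell into 2 trios. Retnla, Clec10a and Folr2 formed the first (r of 0.87 for Retnla with Clec10a, 0.87 for Retnla with Folr2 and 0.92 for Clec10a with Folr2), with vehicle library 5 highest in all 3 genes and antibody library 3 lowest. Cd163, Stab1 and F13a1 formed the second (r of 0.91, 0.91 and 0.87), with vehicle library 2 highest in all 3. Leaving out the 2 libraries farthest from the median gave r of 0.88 for Retnla with Clec10a, 0.73 for Retnla with Folr2, 0.84 for Clec10a with Folr2, 0.75 for Cd163 with Stab1, 0.87 for Cd163 with F13a1 and 0.67 for Stab1 with F13a1.

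**Figure D4:**
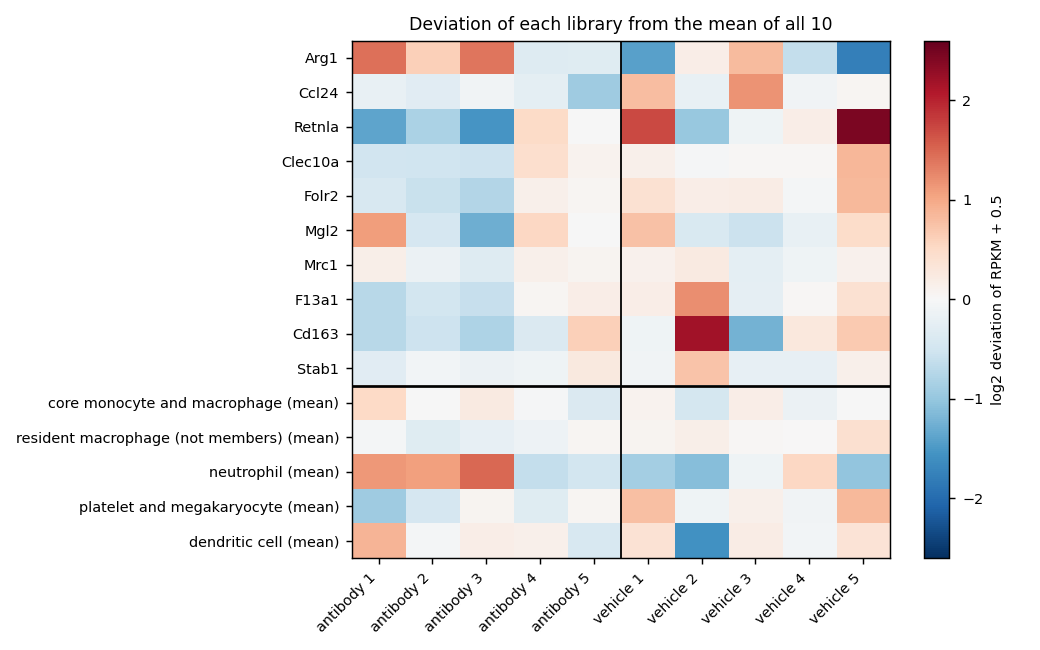
Deviation of log2(scaled RPKM + 0.5) in each library from the mean of all 10 libraries (red above, blue below), for the 10 genes and, under the line, for the means of 5 marker lists; antibody libraries are left of the vertical line and vehicle libraries right of it. Arg1 and Retnla have opposite colours in antibody libraries 1 and 3 and vehicle libraries 1 and 5, and antibody libraries 1, 2 and 3 combine high neutrophil genes with low Folr2, F13a1 and Clec10a.

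Other genes of the resident macrophage programme lay on the same side. Of 20 such genes outside the 10, 19 were tested; 17 lay lower and 2 higher after antibody, with a median log2 difference of -0.31, none was called, and 3 had an unadjusted p below 0.05, all lower. Of all genes tested, 51.1% lay lower, and 2.95% lay lower with an unadjusted p below 0.05. The same shares stand beside the list counts below. Genes of a list come from the same 10 libraries, so these counts are not of separate observations. By the exact permutation test the p was 0.0556 for Fcna, 0.0476 for C1qc and 0.0635 for Cbr2. Fcna is a ficolin of macrophages (3.67 ± 0.902 RPKM after antibody, 6.83 ± 3.18 RPKM after vehicle; log2 difference -0.72, SE 0.28), C1qc a chain of complement C1q (89.5 ± 12.4 RPKM after antibody, 126 ± 32.0 RPKM after vehicle; -0.46, SE 0.18), and Cbr2 a carbonyl reductase of resident macrophages (19.5 ± 6.53 RPKM after antibody, 32.9 ± 13.4 RPKM after vehicle; -0.71, SE 0.29). The limma adjusted p was 0.739 for each. Lyve1, which marks both resident macrophages beside vessels and lymphatic endothelium, measured 16.2 ± 7.21 RPKM after antibody and 14.4 ± 5.19 RPKM after vehicle (log2 difference 0.14, SE 0.30). The summed level of the list was 1210 to 1549 RPKM after antibody and 1422 to 2103 RPKM after vehicle. The list was put together with earlier results of these data known, so it is no independent evidence of direction.

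The signalling genes upstream of alternative activation did not share that direction. The cytokines Il4 and Il13 were too low to test, with 0 to 11 and 0 to 5 reads per library. Of the other 17 genes of the IL-4 and IL-13 pathway, 12 lay higher and 5 lower after antibody, with a median log2 difference of 0.10 and none called. Jak3, the kinase bound to the common gamma chain, measured 7.25 ± 0.606 RPKM after antibody and 5.33 ± 0.848 RPKM after vehicle (log2 difference 0.42, SE 0.11), and Il33, an alarmin that amplifies type 2 responses, 19.1 ± 5.13 RPKM after antibody and 13.2 ± 2.41 RPKM after vehicle (0.49, SE 0.19); both had a limma adjusted p of 0.739. Stat6 measured 23.4 ± 2.06 RPKM after antibody and 23.1 ± 2.10 RPKM after vehicle (log2 difference 0.014, SE 0.093), and the IL-4 receptor chain Il4ra 34.2 ± 9.34 RPKM after antibody and 29.5 ± 8.80 RPKM after vehicle (0.22, SE 0.25).

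Further targets of alternative activation were mixed. Of 18, 16 were tested; 10 lay higher and 6 lower after antibody, and none had an unadjusted p below 0.05. The smallest was that of Ear2, an eosinophil-type ribonuclease also made by macrophages (0.772 ± 0.555 RPKM after antibody, 1.76 ± 1.097 RPKM after vehicle; log2 difference -0.82, SE 0.42; limma adjusted p = 0.739). Chil3, the chitinase-like protein Ym1, measured 2.67 ± 2.43 RPKM after antibody and 7.47 ± 13.8 RPKM after vehicle, where vehicle library 2 alone set the higher mean.

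Around Arg1, the 10 genes of arginine use split into 4 higher and 6 lower after antibody. Nos2, the inducible nitric oxide synthase that competes for arginine, measured 1.77 ± 0.460 RPKM after antibody and 1.26 ± 0.294 RPKM after vehicle (log2 difference 0.36, SE 0.16). Gatm, which makes guanidinoacetate from arginine, measured 3.10 ± 0.495 RPKM after antibody and 4.30 ± 0.997 RPKM after vehicle (-0.40, SE 0.16). The second arginase gene, Arg2, measured 2.77 ± 2.21 RPKM after antibody and 1.05 ± 0.692 RPKM after vehicle (0.80, SE 0.57). For Nos2 and Gatm the limma adjusted p was 0.739, and for Arg2 it was 0.777.

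Genes of classical activation leaned the other way: of 12, 8 lay higher and 4 lower after antibody, with a median log2 difference of 0.22 and none called. Il1b measured 47.0 ± 30.4 RPKM after antibody and 14.0 ± 12.2 RPKM after vehicle (log2 difference 1.93, SE 0.73), and Il6 measured 5.88 ± 3.77 RPKM after antibody and 2.48 ± 1.03 RPKM after vehicle (0.995, SE 0.36), both with a limma adjusted p of 0.739. By library, Il1b measured 86.8, 59.4, 55.9, 18.3 and 14.7 RPKM in antibody libraries 1 to 5, against 9.82, 1.81, 20.3, 32.1 and 6.09 RPKM in vehicle libraries 1 to 5. The summed level of the list was highest in antibody libraries 1, 2 and 3, at 154, 102 and 105 RPKM, against 42.4 and 53.2 RPKM in antibody libraries 5 and 4 and 29.1 to 67.2 RPKM in the vehicle libraries. The same 3 antibody libraries were the highest in the neutrophil genes described below, whose part in this was not tested. On the side of the eosinophil, the cell that Ccl24 attracts, 4 of 10 genes passed the filter and all 4 lay higher after antibody. Among them the receptor Ccr3 measured 0.834 ± 0.425 RPKM after antibody and 0.440 ± 0.281 RPKM after vehicle (log2 difference 0.51, SE 0.25; limma adjusted p = 0.739), and the related eotaxin Ccl11 15.3 ± 2.95 RPKM after antibody and 14.6 ± 2.36 RPKM after vehicle (0.063, SE 0.16). The other tested genes, Prg2 and Siglecf, had log2 differences of 0.18 (SE 0.22) and 0.096 (SE 0.19). They rest on 2 to 19 and 2 to 25 reads per library. For Prg2, Siglecf and Ccl11 the difference was smaller than its SE. Epx, the eosinophil peroxidase gene, had 1 to 17 reads per library.

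**Figure D5:**
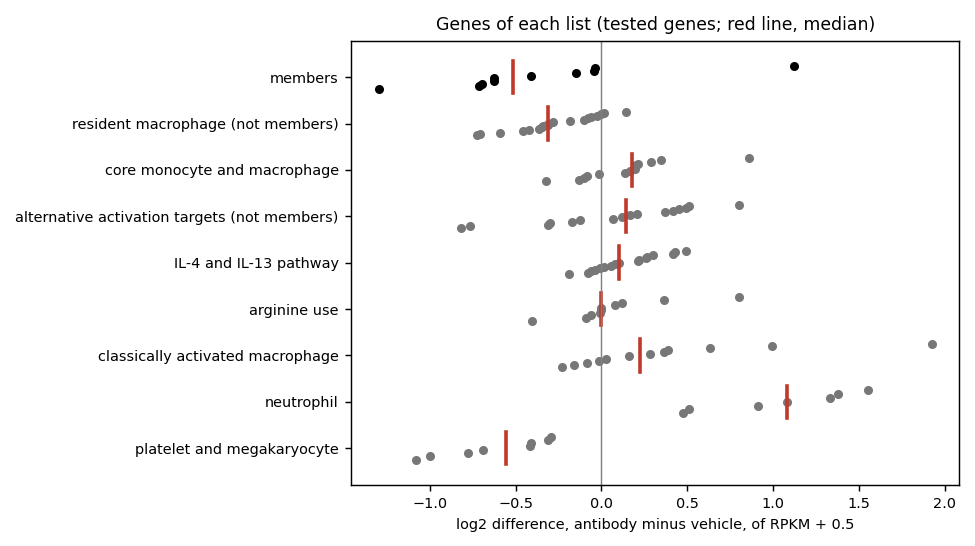
The log2 difference of scaled RPKM + 0.5 (antibody minus vehicle) of each tested gene, with the 10 genes (black) in the top row and genes of 8 related lists (grey) below, and the median of each row as a red line. The medians are -0.52 for the 10 genes, -0.31 for other resident macrophage genes, 0.10 for the IL-4 and IL-13 pathway, 1.08 for neutrophil genes and -0.55 for platelet genes.

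Markers of neutrophils and platelets varied along with several of the 10 genes, and were followed up after the values were seen. Other lists had r of similar size over the 10 libraries. F13a1 had a Pearson r of -0.92 (rho -0.88) with the mean log2 level of classical activation genes. Stab1 had -0.88 (rho -0.52) with dendritic cell genes, and Folr2 0.88 (rho 0.84) with the other resident macrophage genes. All 7 of 10 neutrophil genes that were tested lay higher after antibody, 2 of them (Cxcr2 and Csf3r) with an unadjusted p below 0.05 and none called. Their median log2 difference was 1.08, while Ly6g, Camp and Ngp reached at most 0.475, 0.560 and 0.491 RPKM in any library and were at 0 in some. The summed level of the list was 270.4, 266.5, 423, 62.0 and 62.0 RPKM in antibody libraries 1 to 5, against 50.9, 40.2, 107.8, 173 and 50.3 RPKM in vehicle libraries 1 to 5. Antibody libraries 1, 2 and 3, the highest in neutrophil genes, were those lowest in Folr2, F13a1 and Clec10a. Over the 10 libraries the mean log2 level of the neutrophil genes had a Pearson r of -0.90 with Folr2 (rho -0.85), -0.85 with F13a1 (rho -0.94), -0.82 with Clec10a (rho -0.72), -0.69 with Retnla (rho -0.62) and 0.74 with Arg1 (rho 0.70). For deviations from the group means the r with Folr2 was -0.86.

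When the neutrophil level was added as a term in limma, an alternative added after the data were seen, the median log2 difference over the 10 genes was -0.067 and 6 of 10 lay lower. Folr2 then had a log2 difference of -0.25 (SE 0.15, unadjusted p = 0.142), F13a1 -0.18 (SE 0.23), Arg1 0.38 (SE 0.53) and Retnla -0.51 (SE 0.68). Clec10a had -0.038 (SE 0.20) and Cd163 -0.097 (SE 0.58). Ccl24 had -0.88 (SE 0.33) and was the only one of the 10 with an unadjusted p below 0.05 in that fit (0.0259; limma adjusted p = 0.911).

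The platelet and megakaryocyte list shares Pf4 with the resident macrophage list, so these lists are not separate measures. All 8 platelet and megakaryocyte genes lay lower after antibody, 3 of them (Gp9, Gp1bb and Treml1) with an unadjusted p below 0.05 and none called. Their median log2 difference was -0.55, and none was at 0 in any library. Their mean log2 level had a Pearson r of 0.79 with Retnla (rho 0.52), -0.74 with Arg1 (rho -0.52), 0.70 with Folr2 (rho 0.64) and 0.42 with F13a1 (rho 0.42) over the 10 libraries. For deviations from the group means the r with F13a1 was 0.091. The summed level was 151 to 285 RPKM after antibody and 186 to 320.2 RPKM after vehicle. With their mean level as a term, also added after the data were seen, the median over the 10 genes was -0.14, Folr2 had a log2 difference of -0.38 (SE 0.25, unadjusted p = 0.168), and none of the 10 had an unadjusted p below 0.05. Neutrophils and platelets were not counted in these veins, and the part of either in the differences was not tested.

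Lists for dendritic cells, endothelium and fibroblasts were read by counts and levels, without a fit that adds their level. Of 11 dendritic cell genes, 7 lay higher and 4 lower after antibody, with a summed level of 431 to 1502 RPKM after antibody and 85.6 to 1003 RPKM after vehicle, the lowest being vehicle library 2, and their median log2 difference was 0.52. Xcr1, which marks one dendritic subset, measured 0 to 0.435 RPKM over the 10 libraries. Of 9 lymphatic and sinusoidal genes, 8 lay higher after antibody (98.9 to 187 RPKM summed after antibody, 85.7 to 156 RPKM after vehicle). Stab2, the sinusoidal partner of Stab1, measured 0.214 to 0.647 RPKM over the 10 libraries. Of 6 pan-endothelial genes, 4 lay higher after antibody (146 to 181 RPKM summed after antibody, 139 to 181 RPKM after vehicle), and their mean log2 level had a Pearson r of -0.84 with Clec10a (rho -0.72). Fibroblast genes lay lower in 7 of 8 (6119 to 6934 RPKM summed after antibody, 6375 to 9763 RPKM after vehicle). Their mean log2 level had a Pearson r of 0.81 with Retnla (rho 0.78), 0.73 with Folr2 (rho 0.78) and 0.63 with Clec10a (rho 0.83) over the 10 libraries. None of these genes was called, and their part in the results was not tested.

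Genes with the pattern most like each of the 10 were sought among 12370 protein-coding genes by Pearson correlation of log2 levels over the 10 libraries, as a description. They were Csgalnact1 for Arg1 (r of 0.97), Chp2 for Retnla (0.95), Kdelr3 for Ccl24 (0.96), Abca3 for Mrc1 (0.93), Aldh2 for Clec10a (0.97), Acss1 for Mgl2 (0.93), Slit3 for Cd163 (0.94), Agap1 for Stab1 (0.94), Kcnj8 for Folr2 (0.95) and Mcf2l for F13a1 (0.96). Closest to the mean of all 10 was Aldh1a1, a retinaldehyde dehydrogenase, with r of 0.97, followed by Gabarapl1 (0.96), Ntrk3 (0.95), Abca9 (0.93) and Stard8 (0.92). Aldh1a1 measured 5.54 ± 1.74 RPKM after antibody and 9.68 ± 3.53 RPKM after vehicle (log2 difference -0.73; limma adjusted p = 0.739). These rankings rest on 10 points each.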

How the data were processed

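RNA was measured by sequencing in 10 libraries of mouse fistula outflow vein, 5 after antibody and 5 after vehicle, made from 0.5 µg of total RNA with a TruSeq kit, per the labels' protocols. The authors deposited 1 table of 43346 genes with an RPKM column per library, per the file headers. Coordinates are those of the file; the submitters' processing notes name mm10. Aligner, counter, strandedness and annotation release were not given in the sources used here. Groups and replicate numbers are those of the labels.

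RPKM times gene length plus 1 bp gave whole reads for 100% of values within 0.001, so depth is known, and all 10 libraries differed beyond sampling noise. Composition was scaled by TMM (trimmed mean of M values) on these reads (factors 0.841 to 1.13). Genes were kept with at least 5 libraries at 0.513 CPM (10 reads in the median library) and 15 reads in total, leaving 17859. The main model, fitted to log2(scaled RPKM + 0.5) of all of them, was limma (version 3.58.1, R 4.3.3, variance trend on). It was also run on simulated data, whose outcome is not reported here, so the size of change it could miss is not stated. An alternative was limma-voom on the recovered reads. Exact permutation tests used numpy 2.4.6, and correlations used scipy 1.17.1. Alternatives varied the scaling, the added constant, the filter, the model and the libraries.

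The text names all 10 genes, up to 4 genes of smallest p per related list (others named for their role were picked after their values were seen), and the best correlated genes. The 10 genes and the lists were chosen with earlier results of these data known. Lists share Lyve1, Pf4, Retnlg, Arg2, Slc7a2 and Nos2 in pairs. In adipocyte (2 higher, 4 lower), skeletal muscle (0 higher, 6 lower), kidney tubule (1 higher, 5 lower) and T and NK cell genes (8 higher, 1 lower after antibody) none was called. Summed RPKM after antibody and after vehicle was 78.6 to 565 and 159 to 230 for adipocyte genes. It was 247 to 2710 and 478 to 4374 for muscle, and 3.09 to 61.4 and 5.43 to 57.9 for kidney. The mean log2 adipocyte level had a Pearson r of 0.76 with Clec10a, 0.75 with Folr2 and -0.49 with Arg1 for deviations from group means. Over the 10 libraries the r was 0.56, 0.40 and -0.30. The part of these tissues was not tested.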

Additional observations from a re-analysis of the deposited data

Results flagged for a closer look

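For each of the 10 genes, the highest and lowest library of each group of 5 was compared with the nearest other library. A library counted as standing apart when that gap exceeded 0.71 of the group's range (Dixon's critical value for 5 samples); chance gives this in about 1 in 20 groups, and 4 of 20 groups had it. Cd163 stood apart in both groups, with antibody library 5 at 19.0 RPKM above the other antibody libraries and vehicle library 2 at 57.3 RPKM above the other vehicle libraries. Stab1 measured 71.4 RPKM in vehicle library 2, above the rest of its group. Clec10a measured 19.9 RPKM in vehicle library 5, above the rest of its group. These gaps were taken on RPKM, whereas the rate of 1 in 20 is that of normally distributed values. On log2(scaled RPKM + 0.5), 2 groups passed: vehicle library 5 for Clec10a again, and antibody library 5 for Ccl24, low at 1.05 RPKM. The gap over the range on that scale was 0.69 for Cd163 in antibody library 5, 0.44 for Cd163 in vehicle library 2 and 0.64 for Stab1 in vehicle library 2.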

How the results depend on the processing

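The number of the 10 genes called was 0 under all 25 alternatives, and the number of all genes called was 0 under 24 of them, limma-voom included (1062 genes with an unadjusted p below 0.05, against 1168 in the reported fit). The exception was no filter on low values, which called 1 gene, the microRNA gene Gm27598, with 0 to 2 reads per library and an adjusted p of 0.0410. Leaving out 1 library at a time gave 0 genes called throughout and a median over the 10 genes of -0.64 to -0.33; the smallest adjusted p was 0.105 without antibody library 5. The median was -0.24 without vehicle library 2 and antibody library 3, -0.067 with the neutrophil level and -0.14 with the platelet level as a term, all 3 chosen after seeing the data; the cause was not tested.

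Without vehicle library 2 alone, or antibody library 3 alone, 7 of 10 genes lay lower. With the level of the kidney tubule gene Kap as a term, 9 of 10 lay lower and the median was -0.45. Arg1, Retnla, Ccl24, Cd163, Clec10a, Folr2 and F13a1 kept their sign in all 25 alternatives, but with the neutrophil level as a term Clec10a was at -0.038 (SE 0.20) and Cd163 at -0.097 (SE 0.58). Leaving out single libraries, the log2 difference ranged from 0.82 to 1.47 for Arg1, -1.70 to -0.85 for Retnla, -0.83 to -0.49 for Ccl24, -1.11 (without vehicle library 3) to -0.26 (without vehicle library 2) for Cd163, -0.57 to -0.25 for Clec10a, -0.74 to -0.49 for Folr2 and -0.76 to -0.41 for F13a1. Mrc1 ranged from -0.11 to 0.035, Mgl2 from -0.31 to 0.27 and Stab1 from -0.23 to 0.019. With scaling by library totals only, Mrc1 was at 0.042 and Mgl2 at 0.035, 7 of 10 genes lay lower, the median of all genes was 0.063 and 36.3% of all genes lay lower, against 51.1%. Mgl2 was at 0.14 in limma-voom. Without vehicle library 2 and antibody library 3, Mrc1 was at 0.090, Mgl2 at 0.17 and Stab1 at 0.040; with the neutrophil level as a term they were at 0.13, 0.33 and 0.076. The unadjusted p was below 0.05 in 19 of 25 alternatives for Ccl24, 14 for F13a1, 6 for Arg1 and 4 for Retnla. As the alternatives refit the same libraries, such counts are not independent support.

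Same-numbered libraries of the groups had correlations of -0.095 to 0.35 between their deviations, below 0.1 in 3 of 5. Of 10 libraries, 3 correlated best with their own number. Whether the numbers pair the samples is not settled by these correlations. With a replicate block, 0 genes and 0 of the 10 were called, and the median was -0.52. In that fit 5 of the 10 had an unadjusted limma p below 0.05 (1245 of all genes). The SE was 0.22 for Mgl2 and 0.25 for F13a1 with the block, against 0.42 and 0.27 in the reported fit. Depth limits the low genes most: 3 reads were worth up to 1.12 RPKM of Retnla in antibody library 3.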
